A study of Mus musculus with 64 samples.

Results

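Liver of young wild-type mice was compared with omental adipose tissue and skeletal muscle of mice of the same age and genotype, by RNA sequencing of polyadenylated RNA. The liver libraries were 6 of the 64 libraries of a series on body-wide inactivation of the transcription factor gene Myc and ageing, and they were set against 6 adipose and 6 muscle libraries, 18 in all. All 18 were labelled WT, strain C57/B6, aged 5 months. The labels give each of these mice the same tamoxifen course as the mice in which Myc was excised: 5 daily intraperitoneal injections of 75 mg/kg in corn oil, begun at weaning once a mouse weighed at least 15 g. The wild-type groups therefore shared that exposure, and no mice without tamoxifen were among the 18. Sex is not in the labels, nor is it stated whether wild-type mice carried the Cre transgene or whether libraries of different tissues came from the same animals. Libraries were chosen by these labels alone, and the p-values below measure the spread between libraries of a tissue.

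Most of the liver's mass is hepatocytes, epithelial cells that secrete the major proteins of blood plasma, make bile acids, release glucose between meals, turn ammonia into urea and oxidise foreign compounds. Their identity is held by a network of transcription factors, among them HNF4A, the FOXA proteins and C/EBP proteins, that bind the promoters of many of these genes and of each other. Several steps of glucose and fat metabolism are run by liver isoforms of enzymes, encoded by different genes from the isoforms of muscle and fat.

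Each library held 17.1 to 21.1 M recovered reads in liver (M, 1000000), 15.9 to 19.0 M in adipose and 15.5 to 19.4 M in muscle. The deposited columns summed to 1.36 to 1.64 M in liver, 0.600 to 0.712 M in adipose and 1.16 to 1.30 M in muscle, so each was rescaled to 1 M, and a level below, in CPM, is the count per 1 M of that rescaled column. CPM is not corrected for transcript length, so levels are compared between tissues for 1 gene and not between genes. At 3 reads, the level that a count of 0 still allows, a liver gene stands at 0.142 to 0.176 CPM, counting error only. A difference is liver minus another tissue in mean log2(CPM + 1), with its standard error, from a limma fit to the 14168 genes above 1 CPM in at least 6 of the 18 libraries. Because of the added 1, it understates the change of genes with low levels. A gene was called at a Benjamini-Hochberg adjusted p under 0.05.

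Some libraries stood apart, named here by their deposited codes (W5L for liver, W5F for adipose and W5S for muscle). Muscle library W5S5004 held liver transcripts at low levels, such as Alb at 17.8 CPM against at most 1.2 CPM in the other 5. Adipose library W5F5277 held muscle transcripts, such as Ckm at 226 CPM. Other adipose libraries held muscle transcripts too: Acta1 ranged from 11.2 to 533.6 CPM in adipose and was at 368.9 CPM in W5F5277. Leaving out W5F5277 therefore does not remove them all. Adipose library W5F5299 and, less so, muscle library W5S5299 held transcripts of the epididymis list, at summed levels of 1598 and 107.7 CPM, against at most 0.901 CPM in any liver library. Leaving out W5F5277 and W5S5004 together gave 755 liver-high genes in place of 754 and 935 liver-low genes in place of 923, by the definitions given below. Of 40 counts of list members, 2 then differed, by at most 2 genes. Liver libraries W5L5041 and W5L5042 carried Xist and no Y-linked transcripts. They are described at the end, and without the Xist-carrying libraries of the 3 tissues 755 liver-high and 944 liver-low genes were found.

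The label liver held against marker genes. The 10 hepatocyte markers, among them Alb, Apoa1, Apob, Cps1, Cyp3a11, Fgb, Hnf4a, Serpina1b and Tat, summed to 92830 to 134700 CPM in the liver libraries, 23.6 to 154.1 CPM in adipose and 0.259 to 35.7 CPM in muscle. In liver the 12 adipocyte markers summed to 42.2 to 314.4 CPM, against 34330 to 58940 CPM in adipose. Of those markers, Adipoq, which encodes the fat hormone adiponectin, reached at most 0.0972 CPM in liver, and Lep, Retn and Slc7a10 were at 0 in all 6 liver libraries. The 12 muscle fibre markers summed to 0.292 to 9.62 CPM in liver, highest in library W5L5042, and to 137600 to 176800 CPM in muscle.

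Which genes set liver apart from both other tissues was asked gene by gene. Of the 14168 genes, 1502 (10.6%) were called higher in liver than in adipose and than in muscle, and 5181 (36.6%) were called lower than in each. Since differences between tissues pass a test of no difference in most genes, a size was added: 754 genes (5.32%), here liver-high, were called and at least 4-fold higher (a log2 difference of 2) against each tissue, and 923 genes (6.51%), here liver-low, were called and at least 4-fold lower against each. The highest adjusted p among liver-high genes was 0.0043 against adipose and 0.000719 against muscle, and among liver-low genes 0.0122 and 0.0164. All 6 liver libraries lay above all 12 others in 728 (96.6%) of the liver-high genes and in 1076 (7.59%) of all genes tested. Likewise all 6 lay below the others in 897 (97.2%) of the liver-low genes and 3657 (25.8%) of all. Both classes were chosen from these same libraries by call and size, so such separation follows largely from the choice and is no further support. At the edge of the size threshold, 114 liver-high genes had a smaller difference between 2 and 2.5, and 174 genes called higher against both fell just outside, between 1.5 and 2. For liver-low genes these numbers were 348 and 634.

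The counts of lower genes rest on the scaling. Against the mean of the other tissues, 2602 genes (18.4%) were called higher in liver and 8826 (62.3%) lower, so 22.8% of calls were higher, and the median gene differed by -0.69. With TMM-type factors, which centre the bulk of genes, 48.1% of calls were higher (5062 higher and 5463 lower) and the median was -0.04. Values as deposited gave 46.6%. Against adipose alone, 1731 genes (12.2%) were higher and 10083 (71.2%) lower, with a median of -1.02 and 14.7% of calls higher, which became 51.6% with TMM-type factors. Against muscle alone, 4192 (29.6%) were higher and 5989 (42.3%) lower, with a median of -0.21 and 41.2% of calls higher, which became 49.0%. All 754 liver-high genes stayed liver-high among 1122 (7.92%) with TMM-type factors, while 570 of the 923 liver-low genes stayed liver-low among 577 (4.07%). TMM-type factors raised liver against each tissue, with medians of 0.03 from adipose and -0.03 from muscle. Such a shift keeps liver-high genes and removes liver-low genes by its direction, so it is no test of the liver-high set. By direction alone, 3336 genes (23.5%) were called higher against both tissues and 2888 (20.4%) lower with those factors, and 3198 (22.6%) and 3063 (21.6%) with values as deposited. The latter gave 1099 liver-high genes (7.76%) and 607 liver-low genes (4.28%). The pseudocount moved the counts too: 1865 and 349 genes were liver-low with pseudocounts of 0.1 and 5. With edgeR's quasi-likelihood test on recovered reads, 1251 genes were liver-high and 1551 liver-low. That run also used TMM factors and did not use log2(CPM + 1), so the part of the test alone cannot be told. Differences below are to be read against those medians.

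**Figure D1:**
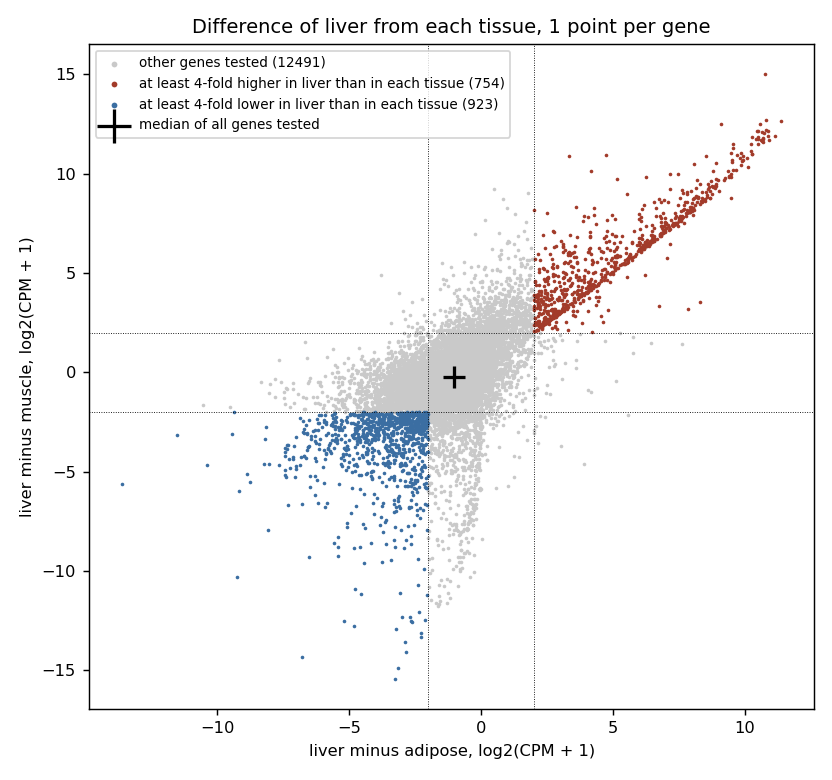
Each of the 14168 genes tested is plotted by its mean log2(CPM + 1) difference of liver from adipose (x axis) and from muscle (y axis). Red points are the 754 liver-high genes, blue points the 923 liver-low genes and grey points the rest; dotted lines mark differences of 2 and -2, and the cross is the median of all genes, at -1.02 and -0.21.

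A small set of transcripts filled much of each liver library. The 754 liver-high genes took 45.8 to 50.9% of the reads in liver, 0.821 to 1.05% in adipose and 0.310 to 0.387% in muscle. The 923 liver-low genes took 0.511 to 0.598% of liver reads, 15.5 to 20.5% of adipose reads and 36.7 to 40.4% of muscle reads. The median liver-high gene had a liver mean of 109.8 CPM, 83 of the 754 reached 1000 CPM, and 354 had means under 1 CPM in both other tissues. Genes like those 354 can pass the expression filter on their liver libraries alone. Median differences of liver-high genes were 4.38 from adipose and 5.54 from muscle, and those of liver-low genes -3.42 and -3.13. In bulk tissue such a difference cannot tell fewer cells of a type from less RNA per cell.

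The leading liver-high genes encoded proteins that hepatocytes secrete and enzymes such as those of methionine metabolism. Alb, which encodes serum albumin, showed the largest difference of the genes ranked here; its lowest, median and highest values, the form used for every gene below, were 53070, 62370 and 92360 CPM in liver, 17.8, 33.1 and 87.8 CPM in adipose and 0.0647, 0.222 and 17.8 CPM in muscle. Even the highest muscle value, in library W5S5004, lay far under the lowest liver value, and the difference was 10.78 ± 0.55 from adipose and 15.01 ± 0.55 from muscle. Mat1a, the liver form of the enzyme that makes S-adenosylmethionine, stood at 5030, 9185 and 14330 CPM in liver, 0.458, 1.71 and 18.7 CPM in adipose and 0, 0 and 5.16 CPM in muscle. Its difference was 11.40 ± 0.55 from adipose, where library W5F5299 held the highest value, and 12.64 ± 0.55 from muscle, where W5S5004 did. Apoa1, the main protein of high-density lipoprotein, was at 7549, 10960 and 19920 CPM in liver, 0.63, 5.53 and 16.9 CPM in adipose and 0.0647, 0.279 and 8.12 CPM in muscle. No library of another tissue came near the liver range, and Apoa1 differed by 10.81 ± 0.52 and 12.72 ± 0.52. Ahsg, which encodes fetuin-A, a plasma protein that keeps calcium phosphate in solution, was at 5348, 7246 and 11090 CPM in liver, 0.516, 4.21 and 10.1 CPM in adipose and 0, 0.0522 and 2.26 CPM in muscle. Bhmt, which remethylates homocysteine with betaine, ranged 2398 to 10820 CPM in liver, 0.0573 to 6.48 CPM in adipose and 0 to 2.9 CPM in muscle, and its liver libraries, though spread widely, all lay above the others. Cyp4a14, a fatty acid omega-hydroxylase, spread further, from 1506 to 13320 CPM in liver, against at most 18.2 CPM in adipose and 5.21 CPM in muscle. Serpina1c, Gc and Cps1 were among the leading 10 too and are described with their groups.

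**Figure D2:**
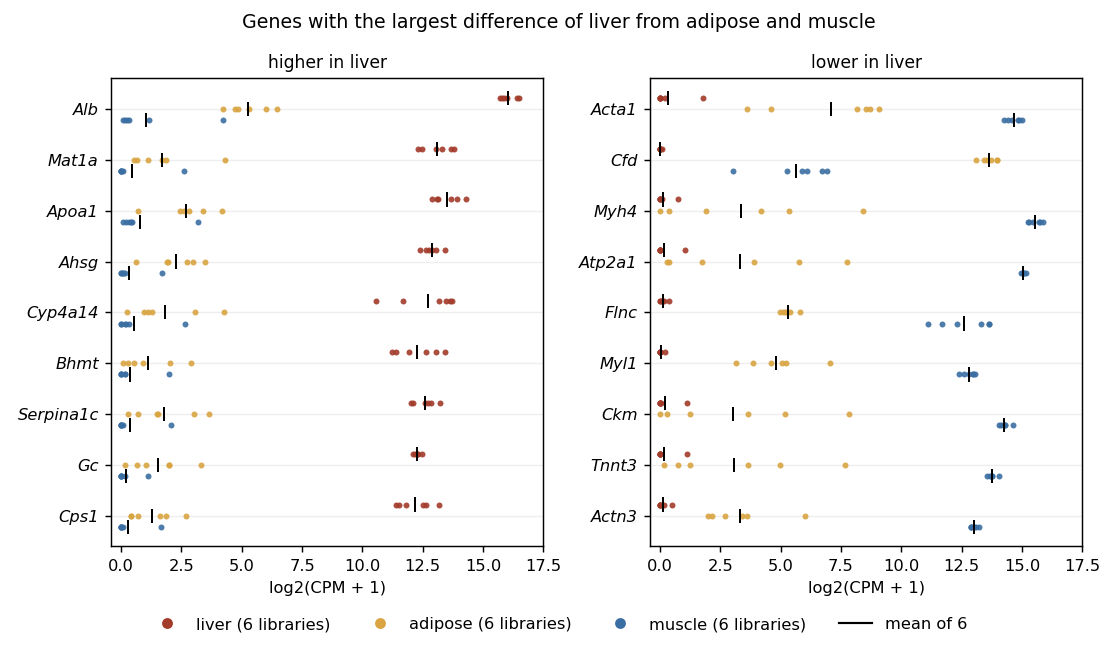
CPM of 9 liver-high and 9 liver-low genes among the 10 each way with the largest difference from the mean of adipose and muscle, 1 point per library on a log2(CPM + 1) axis; liver is red, adipose yellow, muscle blue, and the black tick is the tissue mean. The red points of the liver-high genes lie to the right of every other point, while for Ckm, Myh4, Atp2a1 and Tnnt3 the adipose points reach the liver points near 0.

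Plasma carriers and protease inhibitors, secreted by hepatocytes, were nearly all liver-high. Of 26 listed genes 24 passed the filter; 22 of them were liver-high, against 5.32% of all genes tested, none was liver-low, and the median difference from the mean of the other tissues was 10.15, against -0.69 over all genes. Gc, the carrier of vitamin D, was at 4358, 4913 and 5689 CPM in liver, 0.115, 1.97 and 8.93 CPM in adipose and 0, 0 and 1.18 CPM in muscle. Serpina1c, an alpha-1 antitrypsin, was at 4110, 6489 and 9479 CPM in liver, 0.229, 1.82 and 11.4 CPM in adipose and 0, 0 and 3.22 CPM in muscle, with differences of 10.80 ± 0.49 and 12.22 ± 0.49. Reads of the Serpina1 genes, which are near-identical copies, may be split between them by the counting. Serpina3k, a related protease inhibitor, and Hpx, which binds free haem, were liver-high too, at 8718, 11210 and 15000 and 2649, 3890 and 7377 CPM in liver and at most 78.5 and 6.48 CPM elsewhere. Trf, the iron carrier transferrin, was not liver-high, and its values were 10850, 13450 and 15920 CPM in liver, 2928, 3825 and 5003 CPM in adipose and 9.13, 25.7 and 48.3 CPM in muscle. All 6 liver values of Trf lay above all adipose values, with a difference of 1.8 ± 0.27 from adipose and 9.04 ± 0.27 from muscle. With TMM-type factors or values as deposited all 24 tested genes of the list were liver-high, Trf among them.

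Most clotting factors of plasma were liver-high, and 5 genes of clotting and fibrinolysis that vessel cells and macrophages are known to express were liver-low. Among 32 listed genes, all of which passed, 22 were liver-high (5.32% of all genes) and 5 liver-low (6.51% of all genes). Of the chains of fibrinogen, the precursor of the fibrin clot, Fga was at 3244, 4037 and 6312 CPM in liver, 0.115, 1.82 and 5.79 CPM in adipose and 0, 0.0564 and 0.645 CPM in muscle. Fgb ranged 3176 to 5269 CPM in liver, 0 to 4.72 CPM in adipose and 0 to 1.24 CPM in muscle. Fgg ranged from 2816 to 5771 CPM in liver, highest in library W5L5042, and up to 3.02 CPM in adipose and 0.967 CPM in muscle. Plg, the precursor of the clot-dissolving protease plasmin, differed by 10.23 ± 0.26 from adipose and 11.12 ± 0.26 from muscle. F13a1, a subunit of the clot cross-linking enzyme, was at 0.0486, 0.256 and 0.937 CPM in liver, 102, 263 and 313 CPM in adipose and 7.25, 17.2 and 27 CPM in muscle, with no overlap. Thbd, the thrombin receptor thrombomodulin, was at 2.85, 4.47 and 6.63 CPM in liver, 120.2, 246 and 379.6 CPM in adipose and 15.3, 33.9 and 138 CPM in muscle, and differed by -5.52 ± 0.38 and -2.83 ± 0.38. Vwf and Plat differed by -2.81 and -4.93 from adipose and by -2.62 and -2.54 from muscle. F3, tissue factor, the trigger of clotting, was called lower than in each tissue but was not liver-low, at 2.69 to 4.83 CPM in liver, 33.9 to 105 CPM in adipose and 4.18 to 7.96 CPM in muscle. With TMM-type factors 4 of these genes, not 5, were liver-low.

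Many complement genes were liver-high. Of 27 genes, 12 were liver-high and 2 liver-low (5.32% and 6.51% of all genes), a liver-low share near that of all genes, with a median difference of 3.54. Hc, which encodes component C5, was at 372, 736 and 999.8 CPM in liver, 0.115, 0.787 and 1.2 CPM in adipose and 0, 0.0265 and 0.43 CPM in muscle, and Cfi, the protease that inactivates C3b, at 509.7, 582 and 756 CPM in liver, 1.16, 2.05 and 3.15 CPM in adipose and 0, 0 and 0.161 CPM in muscle. The C8 chain gene C8a varied from 83.2 to 764 CPM among liver libraries and did not exceed 0.755 CPM elsewhere. Cfd, factor D or adipsin, which is known as a product of fat cells, was at 0, 0 and 0.0549 CPM in liver, 8770, 12740 and 16050 CPM in adipose and 7.12, 62.2 and 119.6 CPM in muscle. It was at 0 in most liver libraries, and its difference from adipose was -13.61 ± 0.44. C7 was likewise liver-low, with a difference of -5.10 ± 0.84 from adipose and -2.39 ± 0.84 from muscle (adjusted p = 0.0164), and its lowest muscle library overlapped the liver range.

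Lipoprotein genes followed the plasma proteins. Of 27 genes in the list, 18 were liver-high and 1 was liver-low (5.32% and 6.51% of all genes), the latter near the share of all genes. The median difference was 6.99. Apob, the structural protein of very low-density lipoprotein, was at 1988, 3669 and 7251 CPM in liver, 0.115, 1.03 and 5.66 CPM in adipose and 0, 0 and 1.4 CPM in muscle. Apoa2 and Apoa5, of high-density and triglyceride-rich particles, differed by 10.52 ± 0.41 and 9.88 ± 0.28 from adipose and by 12.15 ± 0.41 and 11.02 ± 0.28 from muscle. Apoe, which adipose tissue and macrophages also make, was at 16550, 20300 and 30760 CPM in liver, 5434, 6859 and 8125 CPM in adipose and 54.6, 110.2 and 270 CPM in muscle, higher in each liver library than in any other, by 1.70 ± 0.33 from adipose and 7.57 ± 0.33 from muscle. Lpl, the lipase that frees fatty acids from lipoproteins in the vessels of fat and muscle, was the liver-low member, at 5.97, 9.33 and 36.9 CPM in liver, 4977, 8665 and 9382 CPM in adipose and 562, 871 and 1129 CPM in muscle. No Lpl value of liver approached those of the other tissues, and the differences were -9.17 ± 0.33 and -5.99 ± 0.33. Gpihbp1, which holds that lipase on the endothelium, was also called lower in liver, with differences of -2.77 and -1.20.

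Bile acid genes were higher in liver throughout. All 23 of 24 listed genes that passed were called higher against both tissues (10.6% of all genes were), and 19 were liver-high (5.32% of all genes). Cyp8b1, the sterol 12-alpha-hydroxylase that sets the share of cholic acid, was at 588, 1131 and 1337 CPM in liver, 0.344, 0.515 and 2.01 CPM in adipose and 0, 0.249 and 1.02 CPM in muscle, and differed by 9.23 ± 0.24 and 9.66 ± 0.24. Slc27a5, the bile acid CoA ligase, ranged from 838 to 1142 CPM in liver and did not pass 1.26 CPM elsewhere. Slc10a1 and Slco1b2, which take bile acids up from the blood, were at 390.5, 457 and 592 and 324, 503 and 1146 CPM in liver, and at most 0.578 CPM in any library of the other tissues.

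All 8 urea cycle genes were liver-high (5.32% of all genes were). Cps1, the mitochondrial entry enzyme of the cycle, was at 2645, 4729 and 9334 CPM in liver, 0.342, 1.34 and 5.41 CPM in adipose and 0, 0 and 2.15 CPM in muscle, with differences of 10.89 ± 0.41 and 11.88 ± 0.41. Otc, the next step, was at 132, 222 and 407 CPM in liver, 0, 0.0814 and 0.755 CPM in adipose and 0, 0 and 0.0537 CPM in muscle, differing by 7.63 and 7.82. Nags, which makes the activator of Cps1, was at 64.3, 79 and 106 CPM in liver, 0, 0 and 0.229 CPM in adipose and 0 CPM in every muscle library, which puts liver at least 421-fold above muscle if every muscle library held 3 reads. Ass1, which joins citrulline and aspartate, was at 2803, 3972 and 5864 CPM in liver, 5.27, 8.12 and 18.6 CPM in adipose and 2.5, 4.45 and 7.97 CPM in muscle, and so had low but clear levels outside liver. Asl, which splits argininosuccinate, had the smallest difference from adipose of the 8, 4.78 ± 0.31, with 37.4 to 72.8 CPM there. Liver library W5L5277 held 439 CPM of Asl against 1172 to 1979 CPM in the other 5, still above every adipose value. Arg1, which releases urea, was at 1171, 2017 and 2900 CPM in liver, 2.05, 4.63 and 20.7 CPM in adipose and 0, 0.0597 and 2.17 CPM in muscle. The mitochondrial ornithine carrier gene Slc25a15 and the aspartate-glutamate carrier gene Slc25a13 ranged from 280 to 547 and 203 to 346 CPM in liver, with differences of 5.20 and 6.26 from adipose and 5.27 and 7.35 from muscle.

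Enzymes that break down amino acids, which supply the urea cycle with nitrogen, were mostly liver-high as well. Of 37 genes, 26 were liver-high and none was liver-low (5.32% and 6.51% of all genes), and the median difference was 7.15. Tdo2, which opens the tryptophan ring, was at 1190, 2081 and 2925 CPM in liver, 0.694, 1.39 and 7.17 CPM in adipose and 0, 0.162 and 0.967 CPM in muscle, and Hpd, of tyrosine breakdown, at 2101, 3283 and 3888 CPM in liver, 0.969, 3.17 and 9.19 CPM in adipose and 0, 0 and 1.34 CPM in muscle. Neither overlapped between liver and another tissue. The exception was Bcat2, the mitochondrial transaminase of branched-chain amino acids, known to be scarce in liver, at 19.6, 22.3 and 24.6 CPM in liver, 195, 212 and 253 CPM in adipose and 51.9, 76.4 and 89.7 CPM in muscle. Its liver values lay under all others, with differences of -3.25 ± 0.14 and -1.64 ± 0.14.

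Genes of glucose output were mostly liver-high. Of 19 genes of glucose output and hepatic sugar handling, 12 were liver-high and none liver-low (5.32% and 6.51% of all genes). The median difference was 5.06. G6pc, glucose-6-phosphatase, the last step of glucose release, was at 294, 421 and 553 CPM in liver, 0.513, 0.738 and 1.64 CPM in adipose and 0, 0 and 0.484 CPM in muscle, and Gcgr, the glucagon receptor, at 222, 236 and 251 CPM in liver, 1.05, 2.29 and 6.44 CPM in adipose and 0, 0.0599 and 0.537 CPM in muscle. Liver lay apart from both tissues for each of these. Foxo1, a transcription factor that insulin signalling restrains, was the 1 member called lower in liver than in each tissue, with differences of -1.24 ± 0.41 (adjusted p = 0.0098) and -1.43 ± 0.41 (adjusted p = 0.00454). Its ranges overlapped, and with TMM-type factors it differed by -0.01 from adipose.

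The isoform lists, of 20 liver forms and the 20 partner forms of muscle, fat or most tissues, were then set side by side. Of the liver forms 13 were liver-high and none liver-low; of the 19 partner forms that passed, 9 were liver-low and none liver-high (5.32% and 6.51% of all genes were liver-high and liver-low). Median differences were 5.53 and -4.90. Aldoa, the aldolase of muscle glycolysis, was at 134, 176 and 208 CPM in liver, 1126, 1433 and 1856 CPM in adipose and 15130, 17340 and 21390 CPM in muscle, with liver under every other library. Pklr, liver pyruvate kinase, ranged 30.3 to 87.2 CPM in liver, 0 to 3.02 CPM in adipose and 0 to 0.107 CPM in muscle, while Pkm, the form of muscle and dividing cells, ranged 13.4 to 21.9 CPM in liver, 277 to 588 CPM in adipose and 3628 to 4709 CPM in muscle. The glycogen synthase of liver, Gys2, was at 89.6, 196 and 222 CPM in liver, 5.35, 9.38 and 12.1 CPM in adipose and 0, 0.559 and 1.02 CPM in muscle, and that of muscle, Gys1, at 1.3, 2.58 and 3.22 CPM in liver, 73.4, 115 and 148 CPM in adipose and 546, 722 and 959 CPM in muscle. Gys2 differed by 4.15 ± 0.25 and 6.88 ± 0.25, and Gys1 by -5.09 ± 0.20 and -7.77 ± 0.20. Glycogen phosphorylase showed a different layout in fat: Pygl, the liver form, ranged from 248 to 342 CPM in liver and from 92.7 to 214 CPM in adipose, a difference of 1.04 ± 0.22, and was at most 3.91 CPM in muscle. Pygm, the muscle form, was at 7215 to 11120 CPM there and at most 0.914 CPM in liver.

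Glucose transporters had the same layout. Slc2a2, the low-affinity glucose transporter GLUT2, was at 39.2, 93.4 and 206 CPM in liver, 0, 0.298 and 1.47 CPM in adipose and 0, 0.0564 and 0.154 CPM in muscle, and Slc2a4, the insulin-regulated GLUT4, at 0, 0.0237 and 0.194 CPM in liver, 46.7, 114 and 187 CPM in adipose and 509, 691 and 807 CPM in muscle. Slc2a4 reached at most 0.194 CPM in liver and differed by -6.53 ± 0.29 and -9.29 ± 0.29. Hk2, the hexokinase of muscle and fat, was liver-low, at 0.484 to 1.9 CPM in liver against 47.7 to 83.4 CPM in adipose and 158 to 807 CPM in muscle. Fbp1, the liver fructose bisphosphatase of glucose synthesis, differed by 9.0 ± 0.30 and 9.66 ± 0.30; its partner Fbp2 differed by -5.50 from muscle and from adipose by -0.45 ± 0.26 (adjusted p = 0.109, not called). The subunits of phosphofructokinase, which commits glucose to glycolysis, did not split this way. Pfkl differed by 1.87 ± 0.19 from muscle and by -1.18 ± 0.19 from adipose, the latter becoming 0.04 with TMM-type factors. Pfkm differed by -8.17 ± 0.26 from muscle and by -0.82 ± 0.26 from adipose, which became 0.35 with those factors.

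**Figure D3:**
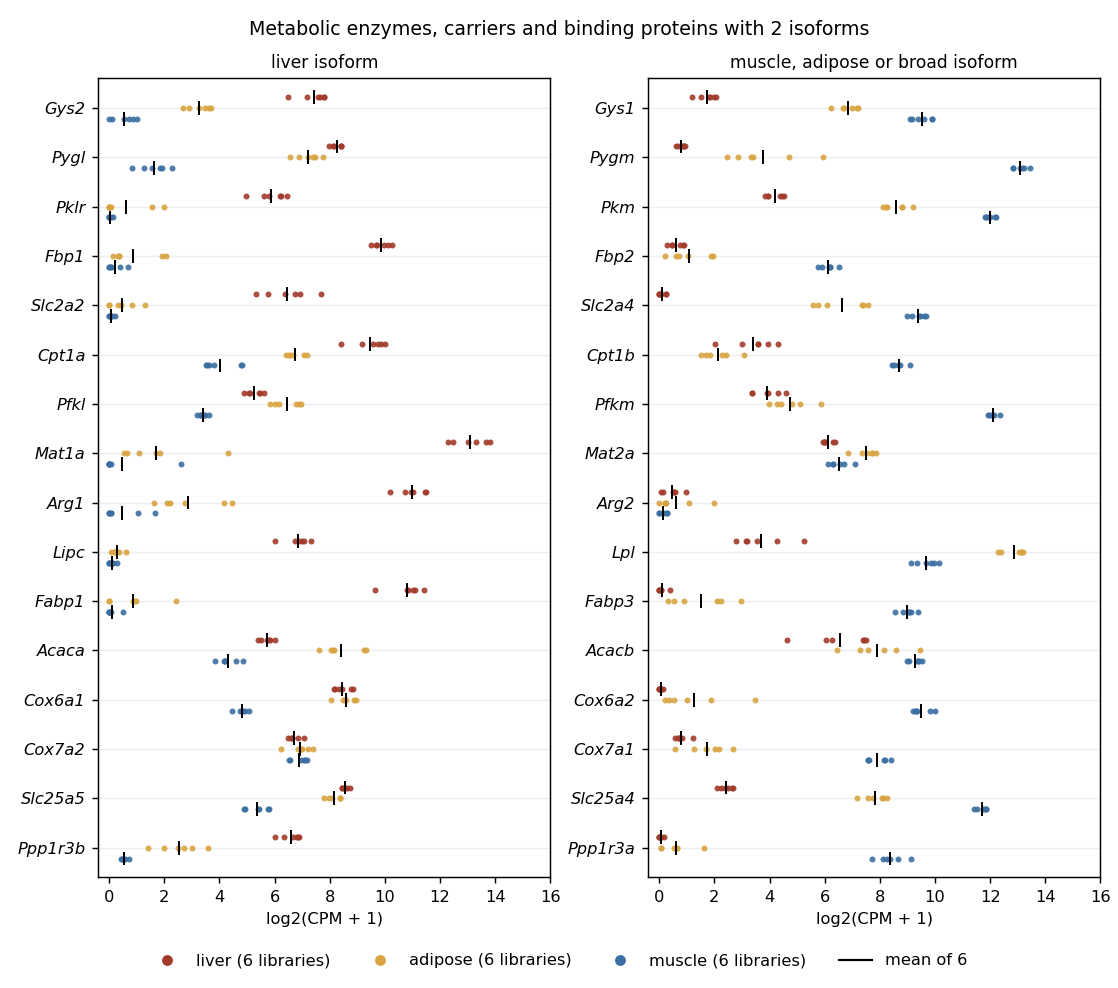
CPM of 16 liver isoforms of metabolic enzymes and transporters (left) and their 16 partner isoforms (right), in matching row order, 1 point per library on a log2(CPM + 1) axis; liver is red, adipose yellow and muscle blue. Red points lie to the right in most left-hand rows, such as Mat1a and Fbp1, and to the left in right-hand rows such as Slc2a4, Slc25a4 and Gys1; Cox6a1 and Cox7a2 are rows where tissues overlap.

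Ketone bodies are made in liver and burned elsewhere. Oxct1, which activates ketone bodies for use, was at 2.53, 2.99 and 4.78 CPM in liver, 159, 260.4 and 361 CPM in adipose and 368, 408 and 464 CPM in muscle. The 6 liver values of Oxct1 stayed under 5 CPM, and it differed by -5.84 ± 0.18 and -6.56 ± 0.18. In the whole list of ketone and fatty acid oxidation genes, 10 of 27 were liver-high and 2 liver-low (5.32% and 6.51% of all genes), the latter near the share of all genes, and the median difference was 1.25. Cpt1a, the liver gate of fatty acid entry into mitochondria, was higher by 2.72 ± 0.28 and 5.44 ± 0.28. Its muscle partner Cpt1b differed by -5.29 ± 0.31 from muscle and by 1.27 ± 0.31 from adipose, whose range overlapped that of liver. Fatty acid binding proteins differed by tissue: Fabp1 was at 803, 1957 and 2719 CPM in liver, 0, 0.847 and 4.34 CPM in adipose and 0, 0 and 0.43 CPM in muscle, Fabp4 at 6.86 to 12 CPM in liver, 9529 to 25330 CPM in adipose and 152 to 316 CPM in muscle, and Fabp3 reached at most 0.323 CPM in liver against 375.3 to 663.6 CPM in muscle. Of the acetyl-CoA carboxylase pair, Acaca, listed as the liver form, did not follow its label. Acaca differed by -2.69 ± 0.25 from adipose and by 1.40 ± 0.25 from muscle. Acacb was called lower than in each tissue, at -1.38 ± 0.47 and -2.75 ± 0.47, the former becoming -0.14 with TMM-type factors.

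In the remaining pairs some liver forms were liver-high and others, on the main scaling, were near their adipose level. Gls2, the liver glutaminase, differed by 8.0 ± 0.16 and 8.51 ± 0.16. Lipc, the lipase of liver vessels, ranged from 63.1 to 159.6 CPM in liver and did not pass 0.513 CPM elsewhere. Ppp1r3b, which brings a phosphatase to liver glycogen, was liver-high at 64.1 to 118 CPM, and its muscle partner Ppp1r3a was at most 0.117 CPM in liver against 208 to 559 CPM in muscle. Slc25a4, the ADP/ATP carrier of heart and muscle, was liver-low (-5.40 ± 0.17 and -9.27 ± 0.17), while Slc25a5, the broad form, was 0.40 ± 0.16 from adipose (adjusted p = 0.0278) and 3.19 ± 0.16 from muscle. Of the respiratory chain subunits, the liver form Cox6a1 differed from adipose by -0.13 ± 0.16 (adjusted p = 0.47), and Cox7a2 by -0.23 ± 0.17 and -0.18 ± 0.17 (adjusted p = 0.228 and 0.352). These 3 differences were not called. They depend on the scaling: with TMM-type factors Cox7a2 changed sign against the mean of the other tissues, to 0.54. Their muscle partners Cox6a2 and Cox7a1 differed by -9.45 and -7.13 from muscle. Mat2a, the broad partner of Mat1a, was called lower, at -1.40 ± 0.18 and -0.41 ± 0.18 (adjusted p = 0.0493 against muscle). Hmgcs1, of cholesterol synthesis, lay between the tissues at -0.99 ± 0.24 from adipose, which became 0.24 with TMM-type factors, and 1.47 ± 0.24 from muscle. Arg2 did not pass the filter, at no more than 2.96 CPM in any library.

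Cytochrome P450s and conjugating enzymes, which clear drugs and steroids, were all called higher against the mean of the other tissues. These were 33 of the 33 that passed of 34 listed (18.4% of all genes), and 22 were liver-high (5.32% of all genes). Cyp3a11, which oxidises many drugs, was at 1320, 4394 and 7494 CPM in liver, 0, 0.484 and 7.14 CPM in adipose and 0, 0 and 0.699 CPM in muscle. Ces1c, a carboxylesterase secreted into mouse plasma, was at 1365, 2417 and 2577 CPM in liver, 0.0573, 0.598 and 2.71 CPM in adipose and 0, 0 and 0.645 CPM in muscle, where the low liver value came from library W5L5004. Cyp2d10 and Ces3a were at 882 to 1098 and 493 to 1468 CPM in liver and no more than 1.47 CPM elsewhere. Cyp2e1, which oxidises ethanol, was an exception in adipose: it was at 4895, 7839 and 9263 CPM in liver, 657, 4726 and 6822 CPM in adipose and 2.65, 30.5 and 58.4 CPM in muscle, and its difference from adipose, 0.99 ± 0.60 (adjusted p = 0.134), was not called, although it became 2.23 with TMM-type factors. The liver and adipose ranges of Cyp2e1 overlapped, with adipose library W5F5006 far under the other 5.

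Among hormones and growth factor genes, 10 of 28 were liver-high and 2 liver-low (5.32% and 6.51% of all genes), the latter near the share of all genes, and 16 were liver-high with TMM-type factors (7.92% of all genes). Igfbp2, which binds insulin-like growth factors, was at 538, 1198 and 1324 CPM in liver, 0.752, 21.9 and 47.6 CPM in adipose and 0, 0.0564 and 0.376 CPM in muscle, and Dio1, which activates thyroid hormone, at 79.1, 99 and 170.2 CPM in liver, 0, 0.0832 and 0.688 CPM in adipose and 0, 0 and 0.107 CPM in muscle. Igfbp1, a binding protein that rises in fasting, was at 18.1, 335 and 1015 CPM in liver, 0, 0.114 and 0.944 CPM in adipose and 0, 0 and 0.161 CPM in muscle. Its liver libraries spread widely and all 6 lay above the rest. Igfbp5 was the liver-low binding protein, at 2.37 to 18.6 CPM in liver and -5.15 and -3.85 from the other tissues. Irs1, an adaptor of the insulin receptor, was liver-low at -2.15 ± 0.25 and -2.14 ± 0.25, close to the threshold; with TMM-type factors, or without adipose library W5F5299, it was not, and 1 gene of the list was liver-low. Irs2, the other adaptor, was called lower, at -1.09 ± 0.47 (adjusted p = 0.0366) and -1.29 ± 0.47 (adjusted p = 0.0185), with overlap, and by TMM-type factors was 0.11 from adipose. Egf was called lower than in each tissue, at -1.38 and -4.42.

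In the acute phase list 9 of 18 genes were liver-high and 1 was liver-low (5.32% and 6.51% of all genes), so that only the liver-high share lay far from that of all genes. In the iron and copper list 5 of the 19 genes that passed, of 20, were liver-high and none liver-low. Crp, C-reactive protein, was at 280, 301 and 351 CPM in liver, 0, 0.394 and 1.02 CPM in adipose and 0, 0.0257 and 0.161 CPM in muscle, and Saa4, the constitutive serum amyloid A, at 40.8 to 189 CPM in liver and at most 0.368 CPM elsewhere. Fgl1, a secreted fibrinogen-like protein, varied from 175 to 1034 CPM among liver libraries. Osmr, a receptor of the cytokine oncostatin M, was the liver-low member, -3.57 ± 0.27 and -2.10 ± 0.27 from the other tissues; with TMM-type factors no member was liver-low. Hamp, the hormone hepcidin that lowers iron release, was at 1261, 1373 and 1783 CPM in liver, 0, 0.6 and 4.15 CPM in adipose and 0, 0.146 and 0.914 CPM in muscle, with 5 of the 6 liver values between 1261 and 1408 CPM. Tfr2, the transferrin receptor by which hepatocytes sense iron, and Tmprss6, a protease that restrains hepcidin, were at 439 to 486 and 365 to 600.5 CPM in liver, and at most 2.97 and 0.692 CPM elsewhere. Tfrc, the receptor for iron uptake, and Bmp6, an upstream signal for hepcidin, were called lower in liver than in each tissue. Bmp6 differed by -1.81 and -1.92, and Tfrc by -0.75 and -1.53, the Tfrc difference from adipose becoming 0.42 with TMM-type factors.

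Of 30 transcription factors known from hepatocytes, 18 were liver-high (5.32% of all genes) and 12 were not, and the median difference was 3.59; the same number, 18, was liver-high with TMM-type factors. Hnf4a, a nuclear receptor at the centre of the network, was at 699.9, 802 and 1094 CPM in liver, 0.173, 0.377 and 5.1 CPM in adipose and 0, 0 and 0.215 CPM in muscle, and differed by 8.71 ± 0.32 and 9.62 ± 0.32. Creb3l3, a membrane-bound factor of lipid and fasting genes, was at 402, 496 and 566 CPM in liver, 0.172, 0.487 and 1.52 CPM in adipose and 0, 0.0257 and 0.215 CPM in muscle. The liver values of both lay well over every other library. For the pioneer factors Foxa1, Foxa2 and Foxa3 the liver ranges were 12.4 to 17.4, 19.7 to 43.5 and 35.7 to 87.2 CPM, against at most 0.228 CPM in any other library. Onecut1 was at 0 in all 12 adipose and muscle libraries and at 1.83 to 21.3 CPM in liver, at least 49.7-fold over adipose and 48.3-fold over muscle at 3 reads per library.

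Nuclear receptors of bile acids, drugs and fatty acids were in the liver-high set. Nr1h4, the bile acid receptor FXR, was at 88.1, 106 and 122 CPM in liver, 1.03, 2.28 and 3.42 CPM in adipose and 0, 0.137 and 0.359 CPM in muscle, and Nr1i2 and Nr1i3, the drug sensors PXR and CAR, at 67.5 to 90.5 and 50.6 to 129 CPM in liver with at most 0.263 CPM elsewhere. Nr0b2, the repressor SHP that FXR induces, ranged from 5.05 to 38.3 CPM in liver. Ppara, the fatty acid sensor, was at 146, 193 and 366 CPM in liver, 5.2, 7.56 and 16.9 CPM in adipose and 17.4, 25.4 and 63.4 CPM in muscle, so muscle held a lower but clear level, and the differences were 4.57 ± 0.31 and 2.84 ± 0.31. Atf5, a stress-response factor, was 2.17 ± 0.20 and 3.28 ± 0.20, at the small end of the set, and was also expressed outside liver, at 172 to 276 CPM in adipose and 67.7 to 144 CPM in muscle. Prox1, Nr5a2, Onecut2 and Gata4 were also liver-high, with differences of 4.58, 4.24, 5.36 and 3.42 from adipose and 5.14, 5.02, 5.45 and 4.39 from muscle.

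Of the other 12 factors, several are known also from fat or muscle. Cebpa, which drives both hepatocyte and adipocyte genes, was at 380.4, 486 and 581 CPM in liver, 357, 889 and 1120 CPM in adipose and 4.66, 8.59 and 17 CPM in muscle, so it was 5.56 ± 0.29 from muscle and -0.65 ± 0.29 from adipose (adjusted p = 0.0439), the last of which turned to 0.59 with TMM-type factors. Cebpb was not called against either tissue (0.51 ± 0.35, adjusted p = 0.181, and 0.28 ± 0.35, adjusted p = 0.485). Rxra, the partner of many nuclear receptors, was higher than in each tissue, by 1.17 ± 0.14 and 1.34 ± 0.14, and did not overlap. Nr1h3, the oxysterol receptor, was -0.43 ± 0.19 from adipose (0.81 with TMM-type factors) and 2.63 ± 0.19 from muscle. Srebf1, which drives fat synthesis, was -1.68 ± 0.38 from adipose and 0.26 ± 0.38 from muscle (adjusted p = 0.555). Esrra differed from muscle by -1.40 ± 0.20 and was not called against adipose. Tbx3 and Mlxipl were higher than in muscle by 1.74 ± 0.36 and 0.81 ± 0.31 and not called against adipose. Klf15 was called against neither tissue. Xbp1 differed by -0.99 ± 0.26 from adipose (0.25 with TMM-type factors) and was not called against muscle. Nfia lay between adipose and muscle at -0.68 ± 0.17 (0.54 with those factors) and 0.69 ± 0.17.

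**Figure D4:**
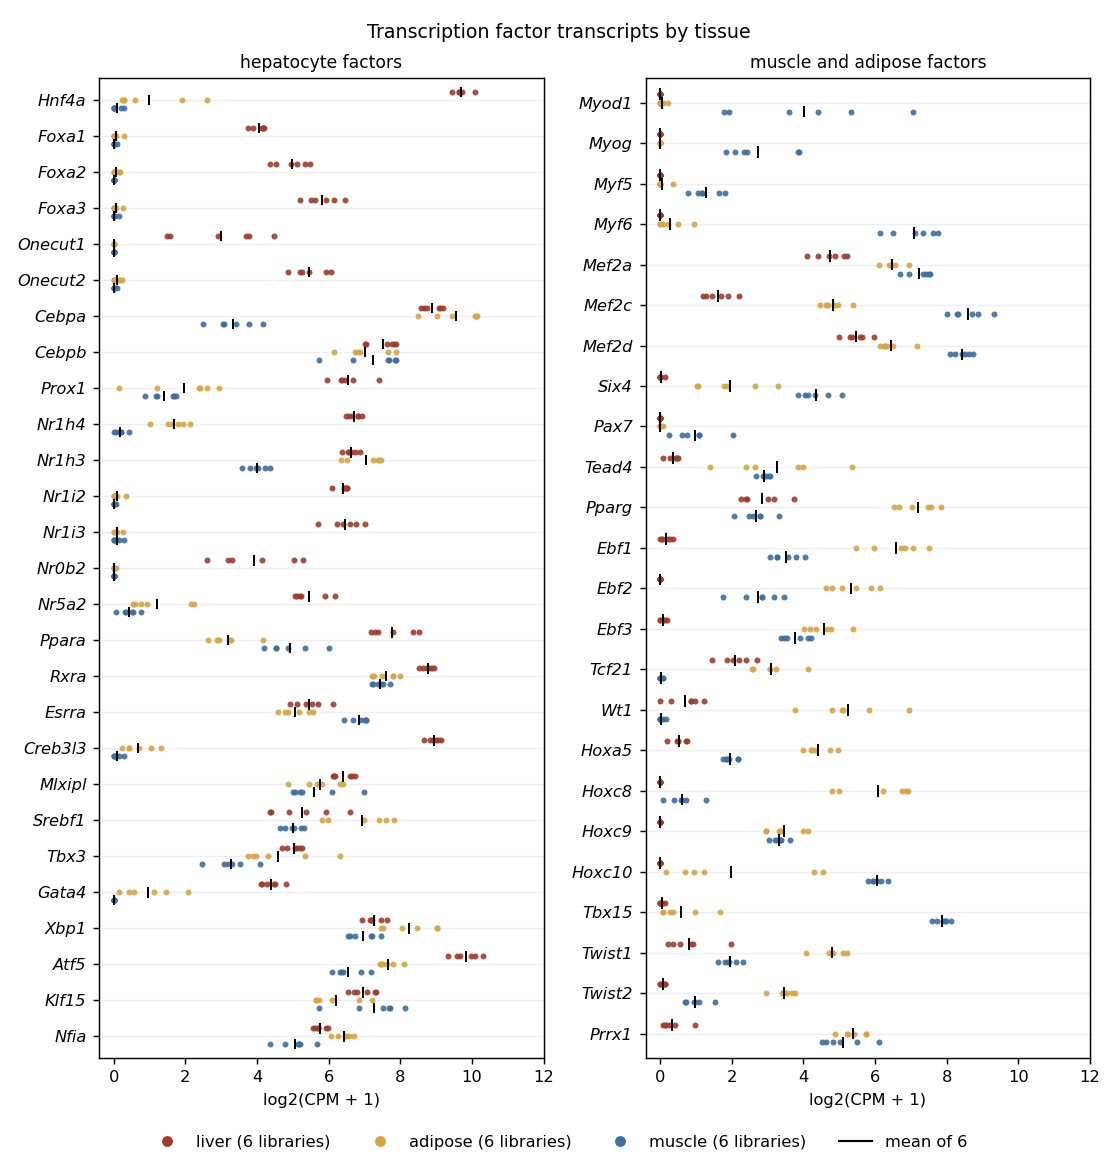
CPM of 27 hepatocyte transcription factors (left) and 24 transcription factors of muscle and adipose tissue (right), 1 point per library on a log2(CPM + 1) axis; liver is red, adipose yellow and muscle blue. Hnf4a, Creb3l3 and the Foxa genes show liver points apart from the rest, while Cebpa, Cebpb and Klf15 do not.

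Most transcription factors of muscle and fat were lower in liver. Of 25 listed factors 23 passed, 16 were called lower than in each tissue (36.6% of all genes), 8 were liver-low (6.51% of all genes) and none was liver-high, with a median difference of -3.13 (2 liver-low with a pseudocount of 5 and 15 with edgeR on recovered reads). Mef2c was at 1.29, 2 and 3.57 CPM in liver, 21.2, 26.4 and 41.1 CPM in adipose and 255, 368 and 644 CPM in muscle, Ebf1, an adipocyte factor, at 0, 0.107 and 0.293 CPM in liver, 43.5, 109 and 179.9 CPM in adipose and 7.42, 9.8 and 15.4 CPM in muscle, and Prrx1, of mesenchymal cells, at 0.0538, 0.156 and 0.986 CPM in liver, 28.7, 39.2 and 52.6 CPM in adipose and 21.9, 29.3 and 68.2 CPM in muscle. None of these overlapped between liver and another tissue. Tcf21, of mesenchymal cells and the 1 member called higher against the mean of the other tissues, chosen for that after its values were seen, was at 1.75, 3.34 and 5.48 CPM in liver, 4.9, 7.41 and 16.3 CPM in adipose and 0, 0 and 0.0647 CPM in muscle, and differed by -1.0 ± 0.23 from adipose (0.02 with TMM-type factors) and 2.08 ± 0.23 from muscle. Myc itself, the gene the series inactivates, was at 3.84, 13.6 and 24.8 CPM in liver, 16.5, 28.5 and 34 CPM in adipose and 5.29, 15.8 and 62.8 CPM in muscle in these wild-type tissues. Its ranges overlapped: the difference was -1.08 ± 0.45 from adipose (adjusted p = 0.0332), 0.09 with TMM-type factors, and -0.57 ± 0.45 from muscle (adjusted p = 0.265, not called).

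Promoters were examined for the binding motifs of these factors, in windows of 300 bases (250 before to 50 after the annotated start, RefSeq, build GRCm38.p6) of the 11241 tested genes with an entry, on both strands. The HNF4 motif CAAAGTCCA lay in the windows of 18 of 581 liver-high genes (3.10%), 5 of 689 liver-low genes (0.726%) and 0.569% of all genes. The FOXA motif TGTTTAC was in 6.88%, 2.76% and 3.37%, in the same order. The C/EBP motif TTGCGCAA was in 0.344%, 0.145% and 0.320%. The E-box CAGCTG of muscle factors was in 19.3%, 26.3% and 18.4%, and the MEF2 motif, CTAAAAA followed directly by TAG, in 0%, 0.290% and 0.151%. Median GC content was 53.0% in liver-high, 60.7% in liver-low and 60.3% in all promoters, and its part in these shares was not tested.

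The 150 bases before the start of 4 liver-high genes described in the text are printed here, 5′ to 3′ on the gene's strand, because they hold such a motif; they were picked for it. Capitals mark CAAAGTCCA in the first 2 and TGTTTAC or its reverse complement GTAAACA in the last 2. They lie at chr9:121916306-121916455 (minus strand) for Cyp8b1, chr5:145879855-145880004 (minus strand) for Cyp3a11, chr1:171224904-171225053 (plus strand) for Apoa2 and chr12:57546112-57546261 (minus strand) for Foxa1.
Cyp8b1: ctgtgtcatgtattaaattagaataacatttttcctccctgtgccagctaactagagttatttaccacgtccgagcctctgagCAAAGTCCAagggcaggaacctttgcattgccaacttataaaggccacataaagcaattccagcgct
Cyp3a11: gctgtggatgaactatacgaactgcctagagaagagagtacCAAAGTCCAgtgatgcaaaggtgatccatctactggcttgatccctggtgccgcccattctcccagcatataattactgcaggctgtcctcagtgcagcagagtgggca
Apoa2: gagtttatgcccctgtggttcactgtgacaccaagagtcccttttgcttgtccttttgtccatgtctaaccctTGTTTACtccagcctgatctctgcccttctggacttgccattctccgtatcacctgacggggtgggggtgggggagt
Foxa1: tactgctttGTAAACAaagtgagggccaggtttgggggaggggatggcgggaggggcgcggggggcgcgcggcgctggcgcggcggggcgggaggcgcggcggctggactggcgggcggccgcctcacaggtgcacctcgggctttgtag
The HNF4 motif began 67 bases before the start of Cyp8b1 and 109 before that of Cyp3a11. The FOXA motif began 77 bases before the start of Apoa2 and 141 before that of Foxa1, itself a gene of that family. A match is a run of letters and no evidence of binding in these mice.

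Many liver-high genes lay beside each other in the genome: 281 of 752 (37.4%) had a liver-high gene as a neighbour among genes tested, against 9.84% of all. Runs of at least 3 numbered 29 and held 133 genes. The longest was 20 major urinary protein genes and pseudogenes from Mup7 to Mup21 (chr4:60066469-62150841). It was followed by 9 Cyp2c genes (chr19:39287044-40187286) and 8 Serpina genes (chr12:103616675-103989968). Most of these Mup genes and the Serpina1 genes are near-identical copies, so the counting may have spread 1 gene's reads over neighbours, and their single levels are uncertain. Other runs joined genes of 1 process: Fgg, Fga and Fgb beside Lrat (chr3:82892582-83049863), Apoa1, Apoc3, Apoa4 and Apoa5 (chr9:46228630-46271921), Ahsg, Fetub, Hrg, Kng2 and Kng1 (chr16:22892015-23082078), and F7, F10 and Proz (chr8:13025506-13076026). Among liver-low genes 179 of 920 (19.5%) had such a neighbour, against 12.5% of all, and the longest run was 4.

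The leading liver-low genes included several of the contractile apparatus of muscle. Of the 923 liver-low genes 400 had the higher mean in muscle and 523 in adipose, and 358 had a liver mean under 1 CPM. Acta1, skeletal muscle actin, was at 0, 0 and 2.42 CPM in liver, 11.2, 327 and 534 CPM in adipose and 19610, 26920 and 32780 CPM in muscle. The 2.42 CPM came from liver library W5L5042, while the other 5 held at most 0.165 CPM. Flnc, a filamin of muscle, was at 0, 0.0528 and 0.291 CPM in liver, 30.8, 36.5 and 54.6 CPM in adipose and 2216, 7580 and 12730 CPM in muscle, and Myl1, a myosin light chain, at 0, 0 and 0.161 CPM in liver, 7.86, 27.7 and 133 CPM in adipose and 5351, 7607 and 8483 CPM in muscle. Atp2a1, Ckm, Myh4 and Tnnt3, of the muscle calcium pump, creatine kinase, fast myosin and troponin T, were liver-low too, and their adipose values reached down to those of liver. Ckm ranged from 0 to 226 CPM in adipose, overlapping liver at 0, and differed by -2.83 ± 0.93 from adipose (adjusted p = 0.00869) and -14.07 ± 0.93 from muscle. The summed muscle fibre markers ranged from 27 to 1668 CPM in adipose, highest in library W5F5277, and their part in these adipose differences was not tested. Actn3, of fast fibres, did not overlap, at 2.99 to 63.4 CPM in adipose and at most 0.430 CPM in liver.

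Matrix genes were low in liver apart from a few. Of 28 collagen and matrix genes 19 were liver-low and 2 liver-high (6.51% and 5.32% of all genes), the latter near the share of all genes. The median difference was -4.01. With TMM-type factors 17 were liver-low and 3 liver-high (4.07% and 7.92% of all genes). Without the Xist-carrying libraries 1 was liver-high. Col3a1, a fibrillar collagen, was at 3.74, 7.08 and 25.9 CPM in liver, 696, 1551 and 3741 CPM in adipose and 71.2, 124 and 306 CPM in muscle, and Fbn1 and Eln, of elastic fibres, at 1.32 to 3.16 and 1.85 to 3.69 CPM in liver, with differences of -6.58 and -6.57 from adipose and -3.92 and -3.76 from muscle. Vtn, the plasma adhesion protein vitronectin, was liver-high at 2125, 2510 and 2818 CPM in liver, 9.9, 19.3 and 41.1 CPM in adipose and 8.34, 11.7 and 16.7 CPM in muscle. Col18a1, the source of endostatin, was the other, at 895, 973 and 1017 CPM in liver, 79.2, 193 and 381 CPM in adipose and 8.87, 10.9 and 16 CPM in muscle. All 6 liver values of each lay above the rest. Fn1, fibronectin, which hepatocytes release into plasma, was higher by 0.88 ± 0.36 from adipose (adjusted p = 0.0276), with overlap, and 3.61 ± 0.36 from muscle.

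Markers of the liver's other cells were present at low levels beside those of hepatocytes. The 12 Kupffer cell and macrophage markers summed to 189.1 to 455 CPM in liver, 945 to 1422 CPM in adipose and 46.5 to 174.9 CPM in muscle. Against the mean of the other tissues 5 were called higher and 6 lower (18.4% and 62.3% of all genes), with a median difference of -0.45. With TMM-type factors 4 of the 12 were liver-high (7.92% of all genes), and on the main scaling 2 were (5.32% of all genes). The 2 were Clec4f, a lectin of Kupffer cells, at 46, 91.2 and 114 CPM in liver, 0, 0.0629 and 0.315 CPM in adipose and 0 CPM in every muscle library, and Cd5l at 22.4, 74.5 and 121 CPM in liver, 2.79, 4.95 and 8.14 CPM in adipose and 0, 0 and 0.154 CPM in muscle. Sinusoidal endothelial markers summed to 324.7 to 471.4 CPM in liver and 642 to 1390 CPM in adipose. Of 12, 6 were called higher and 4 lower against the mean of the other tissues (18.4% and 62.3% of all genes), and 3 were liver-high (5.32% of all genes). The 3 were Clec4g (30 to 83.8 CPM in liver, at most 0.285 CPM elsewhere), Oit3 and Dnase1l3. Of 10 stellate cell markers tested, 6 were called higher and 4 lower against that mean, and 2 were liver-high and 3 liver-low (5.32% and 6.51% of all genes). Lrat, which stores retinol as ester, and Colec11 were liver-high at 3.95 to 10.3 and 19.8 to 39.6 CPM. Des, Pdgfrb and Rgs5, shared with muscle and pericytes, were liver-low. With TMM-type factors 3 of this list were liver-high and 1 liver-low (7.92% and 4.07% of all genes). Cholangiocyte markers summed to 46.1 to 84.2 CPM in liver and 74.8 to 244.8 CPM in adipose, where the mesothelium list, which shares Krt19, reached 2022 CPM. T cell markers summed to at most 4.17 CPM, pancreas markers to at most 20.1 CPM and B and plasma cell markers to at most 14.9 CPM in any liver library, and blood markers to 289.1 to 2102 CPM.

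Both ends of the liver lobule were represented. Hepatocytes near the portal vein make urea and glucose, and those near the central vein make glutamine and oxidise drugs. Of 14 periportal genes 11 were liver-high, and of 14 pericentral genes 7 (5.32% of all genes). With TMM-type factors 11 of each list were liver-high (7.92% of all genes). Against the mean of the other tissues 12 pericentral genes were called higher, 1 lower and 1 was not called. The pericentral list summed to 7519 to 13200 CPM in liver and 2266 to 11040 CPM in adipose, so the ranges of the sums overlapped. Hsd17b13, a lipid droplet protein counted as periportal, was at 321, 444 and 864 CPM in liver, 0, 0.221 and 0.881 CPM in adipose and 0, 0.0515 and 0.215 CPM in muscle. On the pericentral side, Gulo, of vitamin C synthesis, ranged from 184 to 357 CPM, Slc1a2, a glutamate transporter, from 133 to 195 CPM and Cyp1a2 from 169.9 to 482 CPM in liver, with at most 1.42 CPM elsewhere. Cyp2c29 was at 195, 414 and 1693 CPM in liver and at 0 in all 6 muscle libraries, a ratio of at least 3240-fold at 3 reads per library.

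The 6 liver libraries fell into different patterns for genes known to differ between male and female mouse liver. Xist, the RNA of the inactive X chromosome, was at 152.7 CPM in library W5L5041 and 87.3 CPM in W5L5042, and at most 0.0549 CPM in the other 4. Those 4 held 43.7 to 59.7 CPM of the Y-linked Ddx3y, which was at 0 in W5L5041 and W5L5042, as were Eif2s3y, Kdm5d and Uty. Mup7, a major urinary protein, was at 7.58 and 6.56 CPM in the Xist libraries and at 1039 to 18430 CPM in the others. Cyp4a12a was at 1.85 and 0.591 CPM against 162 to 373.7 CPM, and Cyp2d9 at 56.4 and 28.4 CPM against 1189 to 2232 CPM. Serpina1e was at 473.1 and 200.8 CPM against 7787 to 9342 CPM, and Elovl3, a fatty acid elongase, at 13.9 and 2.63 CPM against 151 to 560.1 CPM. In the other direction, Cyp2b9 was at 269.1 and 239.7 CPM in the Xist libraries and at most 0.165 CPM in the other 4, and Cyp2a4 at 235 and 377.6 CPM against at most 0.467 CPM. Cyp2c69 (96.3 and 564 CPM) and Cyp3a41a (3.74 and 496 CPM) differed also between those 2 libraries. No test was made, since sex is not in the labels and the split comes from the data.

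Those of these genes that passed the filter enter the tissue comparison with both kinds of library. Cyp2b9, Cyp2a4, Cyp2c69 and Cyp3a41a did not pass and were not tested. A gene above 1 CPM only in W5L5041 and W5L5042 cannot pass a filter that asks for 6 libraries. Of 20 male-biased genes listed, 17 were tested, and 13 of these were liver-high and 1 liver-low. Of 23 female-biased genes listed, only 9 were tested, and 2 of these were liver-high and none liver-low. Over all genes 5.32% were liver-high and 6.51% liver-low. Because the filter removed more of the female-biased list, the 2 counts cannot be compared. Mup7 and Cyp4a12a overlapped values of another tissue in the Xist libraries and in no other liver library. Without those libraries in the 3 tissues their difference from the mean of the others was 11.21 and 7.49, against 8.44 and 5.36 with all 18.

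Other genes varied among liver libraries without that split, and those in the next sentences were chosen after their values were seen. Saa1 and Saa2, which encode the acute phase protein serum amyloid A, were at 2397 and 1561 CPM in library W5L5004 and at most 72.7 and 22.1 CPM in the other 5. Library W5L5005 had the lowest Igfbp1 (18.1 CPM) and Cyp4a14 (1506 CPM) of the 6. Alb, by contrast, varied less, from 53070 to 92360 CPM.

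**Figure D5:**
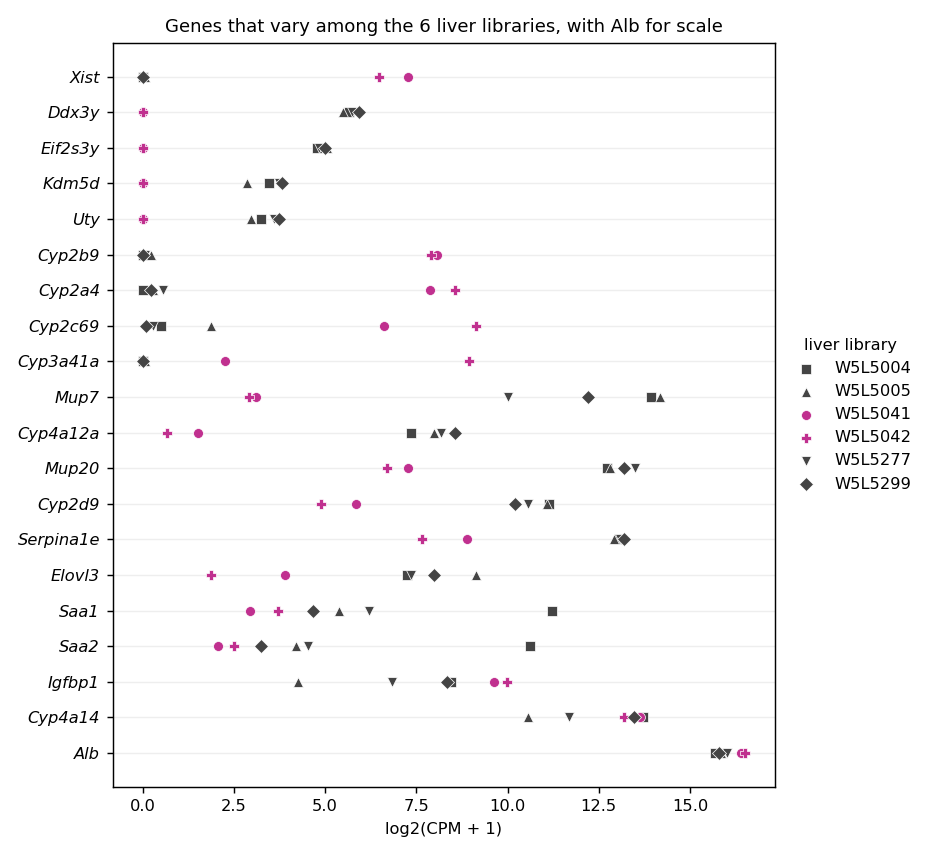
CPM of 20 genes in the 6 liver libraries, 1 marker shape per library, on a log2(CPM + 1) axis; libraries W5L5041 (circle) and W5L5042 (plus), which carry Xist, are magenta. The magenta markers lie apart from the other 4 for Xist, the Y-linked genes and genes such as Mup7 and Cyp2b9, library W5L5004 lies apart for Saa1 and Saa2, and all 6 lie close together for Alb.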

How the data were processed

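Polyadenylated RNA of 18 samples (6 each of liver, omental adipose and skeletal muscle of wild-type mice aged 5 months) was sequenced on Illumina machines after directional NEBNext library preparation, with RNeasy extraction and a lipid tissue kit for adipose and muscle, per the labels' protocols. The deposited table holds 1 signal column per library, headed CPM, for 36333 entries (36332 gene IDs, 35336 with a symbol); the 996 IDs without a symbol held 0.143% of the reads. The submitters' processing notes name builds GRCm38.p6 and mm10; aligner settings, annotation and use of strand are not given in the sources used here, so overlapping and antisense genes may share reads. The deposited signal was a whole number of reads times 1 factor per library: 100% of values came out whole, within 0.01 reads. Columns were read by their code, matched to the sample titles.

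Columns were rescaled to the same total, log2(CPM + 1) was taken, and limma 3.58.1 (R 4.3.3) was fitted with 1 mean per tissue. Its variances were moderated along the trend with mean level, and p-values were adjusted by Benjamini-Hochberg over the 14168 genes above 1 CPM in at least 6 libraries. On the recovered reads edgeR 4.0.16 called 10376 genes and DESeq2 1.42.0 called 10563 against the mean of the other tissues, where limma called 11428. These runs differed in scaling as well as in the test: edgeR used TMM factors and DESeq2 its own size factors. With TMM-type factors limma called 10525. Genes were named by rule: the 10 largest differences each way where a tissue averaged 50 CPM or more, 4 per list plus its exceptions, all members of the urea cycle, transcription factor (hepatocyte) and isoform lists, the 10 highest in liver, the 6 widest-ranging sex-biased genes in liver, Myc, markers, and genes of neighbouring runs by their position. Saa1, Saa2, Cyp2d9, Serpina1e, Elovl3 and Tcf21 were chosen after their values were seen, and some genes under the rule are not reported here. Scripts were tested on simulated data. The members, lists and tests were chosen with earlier results of these data known. Alternatives were other pseudocounts, filters, scalings and tests, a size threshold of 1, a block for shared code numbers, and leaving out libraries; leaving out W5F5277 and W5S5004 together was chosen after seeing the data. Promoter sequences and gene order came from RefSeq tables of GRCm38.p6, analysed with Python 3.11.15. Where a group held no read, 3 reads per library were taken as its upper limit, for counting error only.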

Additional observations from a re-analysis of the deposited data

Results flagged for a closer look

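In 391 groups of 6 values, each a named gene in a tissue, 38 had a highest or lowest library set apart from the other 5 by a gap above Dixon's 95% critical value for 6 values on the log2(CPM + 1) scale; chance sets apart about 1 group in 20. The first of these lay in liver. Library W5L5042 was highest for muscle genes, with Acta1 at 2.42 CPM, Atp2a1 at 1.08 CPM, Ckm at 1.18 CPM and Tnnt3 at 1.18 CPM, where the other 5 held at most 0.165 CPM of each. It was also highest for Fgg at 5770 CPM (others 2816 to 3647 CPM) and for Cyp3a41a at 496 CPM (others at most 3.74 CPM). Library W5L5005 was highest for Cyp1a2 at 482 CPM (others 169.9 to 250.8 CPM) and lowest for Fn1 at 642 CPM (others 1260 to 1673 CPM). Library W5L5004 was lowest for Ces1c at 1370 CPM (others 2384 to 2577 CPM) and Fabp1 at 803 CPM (others 1785 to 2719 CPM). Library W5L5299 was highest for Hamp at 1780 CPM (others 1261 to 1408 CPM) and lowest for Nr1i2 at 67.6 CPM (others 84.5 to 90.5 CPM), and W5L5277 was lowest for Asl at 439 CPM (others 1172 to 1979 CPM).

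Muscle library W5S5004 was highest for genes of hepatocytes: Alb at 17.8 CPM, Apoa1 at 8.11 CPM, Mup7 at 7.25 CPM, Cyp4a14 at 5.21 CPM, Mat1a at 5.16 CPM, Hpx at 4.08 CPM, Apoa2 at 3.44 CPM, Serpina1c at 3.22 CPM, Bhmt at 2.90 CPM, Ahsg at 2.26 CPM, Cps1 at 2.15 CPM, Apob at 1.40 CPM, Fgb at 1.24 CPM, Gc at 1.18 CPM and Cyp4a10 at 1.18 CPM, with at most 1.2 CPM of each in the other 5. Muscle library W5S5277 was lowest for Irs2 at 21 CPM (others 54.6 to 91.9 CPM). Adipose library W5F5299 was highest for Mat1a at 18.7 CPM, Egf at 15.4 CPM, Cyp4a12a at 5.41 CPM, G6pc at 1.64 CPM and Cyp2d10 at 1.45 CPM (others at most 3.44 CPM of each), and for Irs1 at 149 CPM (others 57.7 to 77.3 CPM). Adipose library W5F5277 was highest for Fabp4 at 25300 CPM (others 9529 to 13580 CPM) and for Ppp1r3a at 2.11 CPM (others at most 0.578 CPM), and W5F5006 was lowest for Cyp2e1 at 657 CPM (others 3010 to 6822 CPM).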

How the results depend on the processing

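Liver-high genes numbered 754 and liver-low genes 923. Beyond 1.5 times these counts were, for liver-high genes, 1168 at a size threshold of 1, 1251 with edgeR and 1209 with DESeq2, and, for liver-low genes, 2758 at that threshold, 1865 with a pseudocount of 0.1, 349 with 5, 607 with deposited values, 577 with TMM-type factors, 1551 with edgeR and 1608 with DESeq2. A lower size threshold admits more genes by its construction. A larger pseudocount shrinks the differences of genes with low levels, and TMM-type factors remove liver-low genes by the direction of their shift. For the other settings the cause was not tested. Leaving out 1 library at a time gave 743 to 774 liver-high and 899 to 961 liver-low genes, and called 11175 to 11433 genes against the mean of the other tissues, 11607 to 11847 against adipose and 9898 to 10249 against muscle.

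Against the mean of the other tissues, some named genes changed sign with the scaling or test, in the order deposited values, TMM-type factors, edgeR and DESeq2. Cox7a2 (-0.21) became 0.49, 0.54, 0.53 and 0.48, Esrra (-0.50) 0.18, 0.22, 0.28 and 0.23, and Xbp1 (-0.34) 0.36, 0.40, 0.34 and 0.29. Acaca (-0.65) became 0.057, 0.099 and 0.050 under the first 3, and Srebf1 (-0.71) 0.026, 0.18 and 0.13 under the last 3. Nfia, at 0.003, became -0.010 with a pseudocount of 5, -0.0027 with the block and -0.29 without the libraries with Xist. Leaving out 1 library at a time, Nfia ranged from -0.066 to 0.065; it was -0.033 and -0.013 without W5F5041 and W5F5042, -0.042 and -0.034 without W5L5041 and W5L5042, and -0.066 and -0.024 without W5S5041 and W5S5042. TMM-type factors raised liver against each tissue, as described above, and the cause of the other changes was not tested. Of the other values for lists and single genes, 23 moved, 37 passed the threshold, 19 lost it and 5698 did neither.

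Code numbers are shared between tissues, and the labels do not say that a number is an animal. The libraries that carried Xist had the same code numbers in liver, adipose and muscle. The adipose library and the muscle library highest in epididymis transcripts also shared a number. Whether same-numbered libraries came from the same animal was not tested, and the main fit took all libraries as independent. Correlations were taken over genes on deviations from the tissue mean, not on the levels themselves. On that measure same-numbered libraries of different tissues stood at -0.0755 to 0.315 (median 0.162, 14 pairs). The median for different numbers was -0.0471, and 2 of 4 liver libraries correlated best with their own number in both tissues. With the number as a replicate block 11418 genes were called against the mean, 11770 against adipose and 10087 against muscle, with 754 liver-high and 916 liver-low genes, close to the values without it. A depth of 17.1 to 21.1 M reads limits liver levels under 0.142 to 0.176 CPM.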
